A study of Mus musculus with 2 samples.

Results

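The cluster from Mir322 and Mir503 to Mir450b is a group of microRNA (miRNA) genes on the mouse X chromosome whose hairpins follow one another on the same strand. The 6 genes described are Mir322, Mir503, Mir351, Mir542, Mir450-1 and Mir450b, out of 1973 miRNA gene rows in the count files. They were taken as a list of names, with no threshold on counts. A further hairpin of the same locus, Mir450-2, is not on that list and is described beside them. The counts came from small RNA of at most 30 nt from the forebrain of B6NCrl mouse embryos at day 15.5. There was 1 group of healthy, unmodified embryos with 2 biological replicates, each pooled from embryos of both sexes, 78 in replicate 1 and 62 in replicate 2. No treatment or genotype was compared, and the labels do not say whether the pools shared litters or dissection days.

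A miRNA gene is transcribed into a hairpin precursor that is cut into a duplex of a 5p and a 3p arm. One arm of the duplex is usually kept on an Argonaute protein, where bases 2 to 8 of the miRNA, the seed, pair with target messenger RNAs and lower their output. It is the mouse counterpart of the human cluster that starts with MIR424 and MIR503. Its first 2 genes belong to the extended miR-15/16 family, whose members are known for repressing cyclins and other factors that drive cells into the division cycle, and the cluster has been studied in muscle differentiation, blood vessels and mammary epithelium. In the embryonic forebrain, day 15.5 is a time at which dividing progenitors and newly made neurons are both abundant.

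The sequences of the arms show which known families the cluster reaches. In the lines that follow, bases 2 to 8 are in capitals, each arm is written 5′ to 3′, and all come from RefSeq on GRCm38.p6.
miR-322-5p: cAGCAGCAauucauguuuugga
miR-503-5p: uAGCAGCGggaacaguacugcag
miR-16-5p, for comparison: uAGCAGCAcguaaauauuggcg
miR-15b-5p, for comparison: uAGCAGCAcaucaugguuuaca
miR-351-5p: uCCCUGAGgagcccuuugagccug
miR-125b-5p, for comparison: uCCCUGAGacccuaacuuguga
miR-542-3p: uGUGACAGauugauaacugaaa
miR-542-5p: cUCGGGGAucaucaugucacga
miR-450a-5p, of both Mir450-1 and Mir450-2: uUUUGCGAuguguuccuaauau
miR-450b-5p: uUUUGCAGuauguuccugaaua
miR-450a-1-3p: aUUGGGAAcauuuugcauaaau
miR-450b-3p: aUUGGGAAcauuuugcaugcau

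MiR-322-5p carried the seed of miR-15 and miR-16. Outside the seed it matched miR-15b-5p at 9 of 15 positions and miR-16-5p at 5 of 15, counted from base 1 of each arm. MiR-503-5p shared bases 2 to 7 with that family and differed from it at base 8. Its exact seed was found in no other gene of the sequence table. MiR-351-5p had the seed of miR-125a and miR-125b, the mammalian relatives of the worm miRNA lin-4, and matched miR-125b-5p at 3 of 15 positions outside the seed. The 3p arm of Mir542, known for pairing with the messenger RNA of the cell-division protein survivin, had a seed found in no other gene of the table. MiR-450a-5p and miR-450b-5p shared 5 bases from base 2 onwards and had different seeds, while miR-450a-1-3p and miR-450b-3p shared a seed and were identical at 20 of 22 positions.

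The hairpins of the Mir450 genes show that part of this locus is repeated. Both arms of each are in capitals below. The 5p arm of Mir450-1 stands unchanged in Mir450-2, which lies between Mir542 and Mir450-1.
Mir450-2: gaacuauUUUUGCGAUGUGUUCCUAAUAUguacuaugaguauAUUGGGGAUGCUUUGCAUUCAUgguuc
Mir450-1: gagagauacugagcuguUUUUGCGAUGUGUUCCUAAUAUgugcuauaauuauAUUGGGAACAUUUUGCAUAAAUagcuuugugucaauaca
Mir450b: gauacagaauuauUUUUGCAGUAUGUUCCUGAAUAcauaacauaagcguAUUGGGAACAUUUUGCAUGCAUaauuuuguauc
Reads that fit more than 1 place in the genome went to a separate row of the files and not to any gene. A full-length miR-450a-5p read fits both Mir450-1 and Mir450-2, so the counts of these genes are uncertain and can be too low. No arm of the other 5 genes had an identical copy in the sequence table.

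The 6 genes lie on the minus strand of chromosome X within 6353 nt on mm10. In the direction of transcription, Mir322 (chromosome X, 53054255 to 53054349) comes first, followed after 200 nt by Mir503 (53053984 to 53054054) and after a further 630 nt by Mir351 (53053255 to 53053353). Mir542 (53049403 to 53049487) lies 3767 nt beyond Mir351. Mir450-2 (53048299 to 53048367), Mir450-1 (53048154 to 53048244) and Mir450b (53047997 to 53048078) follow with gaps of 54 and 75 nt between them. None of the hairpins overlapped another gene in GENCODE M21. The noncoding gene C430049B03Rik (53055046 to 53057190) lies on the same strand upstream of Mir322, and the noncoding gene Gm28730 (53051194 to 53053159) fills part of the space between Mir351 and Mir542. Whether 1 primary transcript carries all of these hairpins was not measured in these libraries.

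Replicate 1 held 4464927 counts on the strand of a miRNA gene and replicate 2 held 4753555, which is 38.0% and 36.4% of all reads. Levels are given as counts scaled so that the gene counts of a library sum to 1000000 (CPM), as mean ± SD over n = 2 libraries. A count of 0 allowed a level of up to 0.672 CPM in replicate 1 and of up to 0.631 CPM in replicate 2, as 3 counts would give. Each read is 1 small RNA, so levels were not divided by gene length. How evenly different miRNAs entered the libraries was not measured, so folds and shares between genes are those of reads. Reads placed at more than 1 locus were 44.6% of the total in replicate 1, and in replicate 2 they were 42.4%. Reads carry no molecular identifiers, so all intervals cover counting error only. As a check of the tissue, the neuronal list summed to 18226 ± 605 CPM over 8 genes, led by Mir137, Mir139 and Mir153. The progenitor list summed to 6283 ± 793 CPM over 3 genes. Most of that was Mir92b at 5547 ± 814 CPM, with Mir9-3 at 733 ± 21.2 CPM and Mir9-2 at 3.26 ± 0.451 CPM. Any read that fits more than 1 Mir9 gene was counted for none of them. Mir124a-1, Mir124a-2 and Mir124a-3, which define neurons but share their mature sequence, stood at 2.80, 2.25 and 1.05 CPM.

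All 6 genes passed the detection minimum of 10 counts in both libraries. Together they held 67265 counts in replicate 1, or 1.51% of the gene counts (95% Clopper-Pearson interval 1.50 to 1.52), and 71233 counts in replicate 2, or 1.50% (1.49 to 1.51). The cluster's share was 1.50% ± 0.00566 (SD, n = 2). Without Mir99a, the most abundant gene of these libraries, in the total, the share was 2.14%. With reads at more than 1 locus and reads outside genes added to the total, it was 0.667%. The median level of the 6 genes was 178 CPM, against 111 CPM over the 370 detected genes, and 4 of the 6 stood above that median.

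Mir322 held most of the cluster's reads. Its count was 60406 in replicate 1 and 62574 in replicate 2, which is 13529 and 13164 CPM, and its mean of 13346 ± 258 CPM placed it at rank 16 of all gene rows. It made up 89.8% of the cluster's counts in replicate 1 (89.6 to 90.0) and 87.8% in replicate 2 (87.6 to 88.1). The gene just above it, Mir181c, stood at 14083 ± 278 CPM, a gap larger than the sum of both SDs. Mir20a, just below at 12929 ± 928 CPM, was not separated from Mir322 by that measure.

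Mir351 was the second gene of the cluster, 10.5 times below Mir322. It had 5137 counts (1151 CPM) in replicate 1 and 6659 counts (1401 CPM) in replicate 2, a mean of 1276 ± 177 CPM at rank 79. Mir542 followed at 223 ± 11.1 CPM and rank 145, with 961 counts (215 CPM) in replicate 1 and 1098 counts (231 CPM) in replicate 2. These genes lie on either side of the longest gap in the cluster, and the fold between them was 5.35 in replicate 1 and 6.06 in replicate 2.

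Mir503, the gene closest to Mir322, stood far below it. Its 571 counts in replicate 1 and 662 in replicate 2 were 128 and 139 CPM, a mean of 134 ± 8.05 CPM at rank 175. Mir322 was 106 times higher than Mir503 in replicate 1 and 94.5 times higher in replicate 2, across a gap of 200 nt. Mir503 was therefore lower than both Mir351 and Mir542, which lie further downstream.

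The Mir450 genes at the far end of the cluster were the lowest. Mir450b had 171 counts (38.3 CPM) in replicate 1 and 218 counts (45.9 CPM) in replicate 2, at rank 240. Mir450-1 had 19 counts (4.26 CPM, interval 2.56 to 6.65) in replicate 1 and 22 counts (4.63 CPM, 2.90 to 7.01) in replicate 2, at rank 331. The neighbouring Mir450-2, with 11 counts in replicate 1 and 4 in replicate 2, did not reach 10 counts in each library. Mir450b, which shares neither arm with another gene in full, stood 9.47 times above Mir450-1 on the mean CPM.

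**Figure D1:**
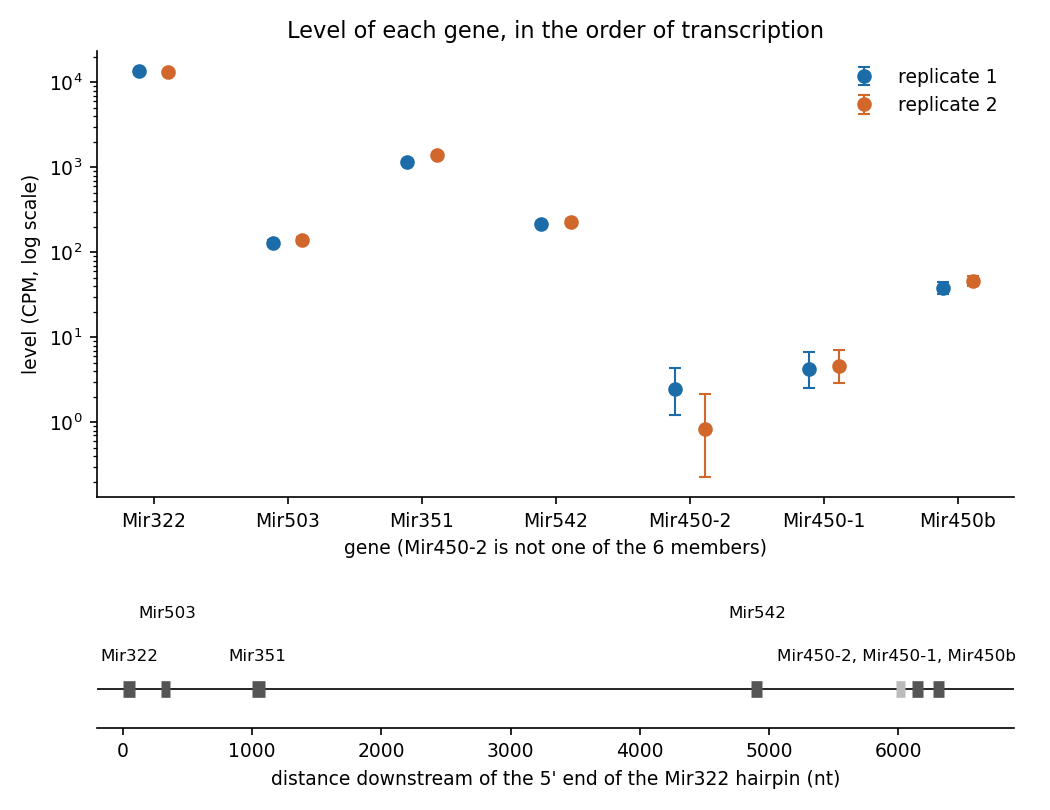
Level of each gene of the locus in CPM (log axis) for replicate 1 and replicate 2, with 95% Clopper-Pearson counting intervals, above a map of the hairpins drawn to scale in nucleotides from the 5′ end of the Mir322 hairpin. Mir322 stands near 13346 CPM, Mir351 near 1276 CPM, and Mir503, between them on the map, near 134 CPM; the Mir450 genes are the lowest.

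The order of levels was Mir322, Mir351, Mir542, Mir503, Mir450b and Mir450-1 in both libraries. Each step in this order was larger than the sum of the SDs of its 2 genes. The smallest step was that from Mir542 to Mir503, at 1.68-fold in replicate 1 and 1.66-fold in replicate 2. Level did not follow the order along the locus: it fell from Mir322 to Mir503, was higher at Mir351, and was lower again at Mir542.

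From Mir322 to Mir450-1 the levels spanned 3005-fold. Of the 15 clusters with at least 3 detected genes on 1 strand and neighbours within 10 kb, this was the widest range on the mean CPM, and the median range was 90.4-fold. The Mir17-92 cluster on chromosome 14, at 2787-fold, came next, and the order of these clusters changed between libraries. The range was 3179-fold against 3567-fold for Mir17-92 in replicate 1, and 2844-fold against 2276-fold in replicate 2. The lower end rests on Mir450-1, whose count is uncertain. Without that gene the range was 317-fold and the fifth widest, an alternative chosen after seeing the data. No gene was left out of the other clusters, whose lowest genes can be too low as well. By the share of its most abundant gene, 88.8% on the mean CPM, the cluster had the third highest value of the 15, whose median was 57.6%.

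**Figure D2:**
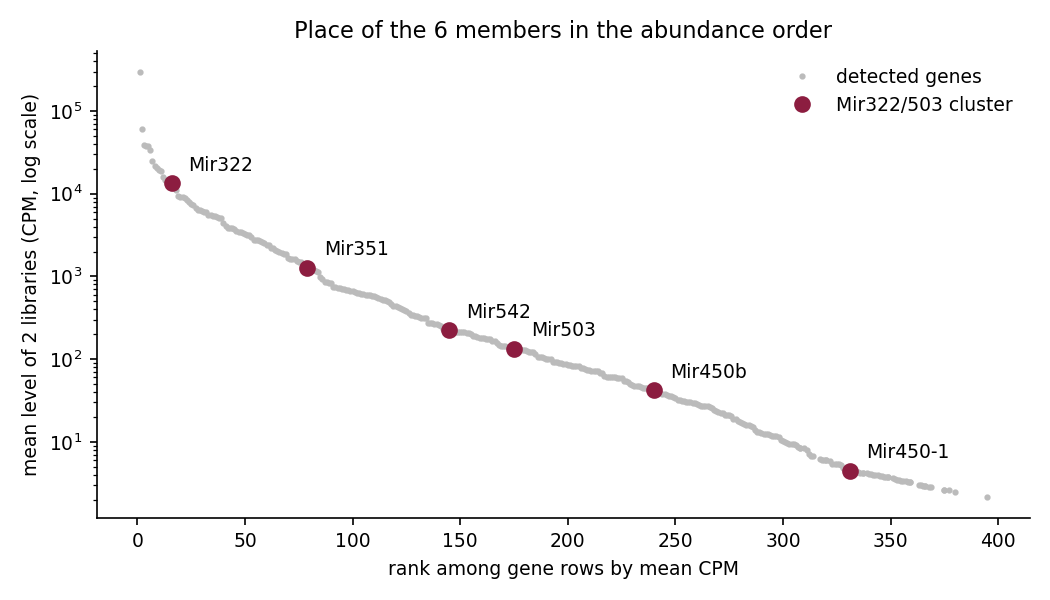
Mean level over 2 libraries in CPM (log axis) against rank among all gene rows, for the detected genes in grey and the 6 genes of the cluster in red. The members are spread over the whole abundance order, from rank 16 for Mir322 to rank 331 for Mir450-1.

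The genes next to the members in rank, with the distance on the log2(CPM + 1) scale over the 2 libraries, all lay outside the cluster. The closest to Mir322 was Mir20a (distance 0.101), to Mir503 Mir505 (0.0922), to Mir351 Mir188 (0.190), to Mir542 Mir10a (0.188), to Mir450b Mir3102 (0.0511) and to Mir450-1 Mir7654 (0.0822). With 2 libraries this likeness describes level and little else. Apart from Mir181c beside Mir322, no rank neighbour was separated from its member by more than the sum of the SDs.

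Among genes with the miR-15/16 seed, Mir322 had the highest counted level. Mir16-1 and Mir16-2 can be too low, since reads that fit both were not counted, so its rank against miR-16 is uncertain. Of 11 such genes in the sequence table, 10 had a row and 6 had counts. Mir15a, which lies beside Mir16-1 on chromosome 14, had 6407 CPM in replicate 1 and 8645 CPM in replicate 2. Mir322 was 2.11 times as high as Mir15a in replicate 1 and 1.52 times as high in replicate 2. Mir16-1 stood at 5193 ± 76.2 CPM, Mir15b at 1145 ± 7.91 CPM, Mir16-2 at 929 ± 14.2 CPM and Mir195a at 526 ± 16.7 CPM. Mir195b, Mir6342, Mir6353 and Mir6419 had no counts, and Mir497 had no row.

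Mir322 thus made up 48.7% of the counts of this seed in replicate 1 (48.4 to 49.0) and 44.5% in replicate 2 (44.3 to 44.8). This share can be too high, because miR-16-5p is identical in Mir16-1 and Mir16-2 and reads that fit both were not counted in either. The counts also do not tell arms apart, so reads of a 3p arm are included. The genes of the seed summed to 28665 ± 1253 CPM, against 134 CPM for Mir503, which shares only bases 2 to 7 with them.

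Mir351, in contrast, was the lowest of the 4 genes with counts that have the miR-125 seed. Mir125a stood at 5387 ± 966 CPM, Mir125b-1 at 2233 ± 179 CPM and Mir125b-2 at 1936 ± 108 CPM. Mir125a was 4.09 times higher than Mir351 in replicate 1 and 4.33 times higher in replicate 2. Mir351 held 11.5% of the counts of this seed in replicate 1 (11.2 to 11.8) and 12.0% in replicate 2 (11.7 to 12.3). MiR-125b-5p is identical in Mir125b-1 and Mir125b-2, so their counts, too, can be too low and the share of Mir351 too high. Mir6367 and Mir6394, which also carry this seed, had no counts.

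**Figure D3:**
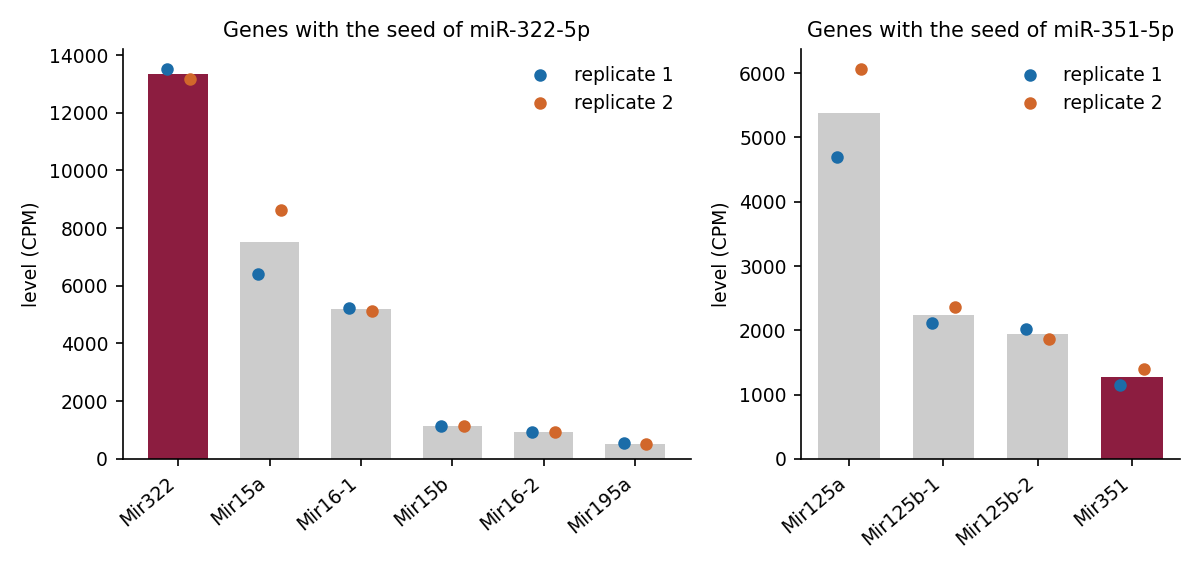
Levels in CPM of the genes with counts that share a seed with miR-322-5p (left) or miR-351-5p (right). Bars are means of 2 libraries, points are replicate 1 and replicate 2, and genes of the cluster are in red. Mir322 is the highest of its seed group by counted reads, and Mir351, at 1276 CPM, is the lowest of its own.

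The other seeds of the cluster brought few or no relatives. Mir450b and Mir450-1, which share a 3p seed, summed to 46.5 ± 5.61 CPM, and the other gene with that seed, Mir6352, had no counts. The seed of miR-542-5p was shared with Mir6966 alone, which had 1 count in each library. For the remaining arms of the 6 genes, other than miR-450a-5p, no other gene of the sequence table had the seed.

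Among X-linked miRNA genes, Mir322 had the highest counted level of 40 detected. Mir98 followed at 6114 ± 468 CPM and Mirlet7f-2 at 3312 ± 273 CPM. Reads that fit more than 1 locus are left out, so X-linked genes with copies elsewhere can be too low. On the same counts, the 6 genes held 36.0% of all X-linked counts in replicate 1 and 37.8% in replicate 2, shares that can be too high. Their sum of 15025 ± 56.6 CPM compared with 3983 ± 92.9 CPM for 5 genes in introns of Clcn5, led by Mir532 (1870 ± 7.25 CPM), Mir188 (1290 ± 12.2 CPM) and Mir501 (596 ± 57.4 CPM). The Mir106a-363 cluster, a relative of Mir17-92, summed to 894 ± 59.4 CPM. It was led by Mir106a at 340 ± 15.5 CPM, Mir363 at 211 ± 31.9 CPM and Mir20b at 211 ± 0.788 CPM. This sum can be too low, because reads that fit both of these clusters were counted for neither. Mir221 (179 ± 18.8 CPM) and Mir222 (105 ± 0.513 CPM) summed to 284 ± 19.3 CPM.

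Between the libraries, Mir351 was higher and Mir322 lower in replicate 2, and the other 4 genes were not called. Genes whose 2 counts summed to 10 or more were compared between the libraries with the two-sided exact binomial test, with Benjamini-Hochberg adjustment over all 457 genes tested. The test compares 2 libraries and covers counting error only. Of the 6 genes, 2 were called at an adjusted p of 0.05, against 36.3% of all genes tested. One was called higher in replicate 2, against 19.3% of all genes tested, and one lower, against 17.1%. The median log2 ratio of replicate 2 over replicate 1 was 0.12 for the 6 genes and 0.05 for all genes tested, and 5 of the 6 had a ratio above 0. The share called was near that of all genes tested. The median absolute log2 ratio of all genes tested was 0.23, and Mir351 and Mir450b lay above it.

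Mir351 was the member called higher in replicate 2, by a log2 ratio of 0.28 (95% interval 0.23 to 0.34, exact binomial test, adjusted p = 2.20e-25). Its coefficient of variation over the 2 libraries was 13.9%, against 14.4% for genes of this level in the edgeR estimate of the spread between these replicates. The call is thus beyond counting error but not beyond that spread. Its share of the cluster's counts was 7.64% in replicate 1 (7.44 to 7.84) and 9.35% in replicate 2 (9.14 to 9.56), a measure that does not depend on how the libraries are scaled.

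Mir322 was the member called lower in replicate 2, at a log2 ratio of -0.039 (interval -0.056 to -0.023, exact binomial test, adjusted p = 7.15e-06). Its coefficient of variation was 1.94%, against 13.1% in the edgeR estimate. The ratio of Mir322 was -0.076 with TMM and -0.067 with DESeq2 size factors, and it was called lower with both. When the total left out Mir99a, the ratio became 0.020 and was called higher (exact binomial test, adjusted p = 0.0373), so its direction depended on the scaling. Mir99a itself had 282249 CPM in replicate 1 and stood at 311336 CPM in replicate 2.

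The other 4 members were not called. Mir450b had a log2 ratio of 0.26 (interval -0.036 to 0.56), Mir503 of 0.12 (-0.041 to 0.29) and Mir542 of 0.10 (-0.024 to 0.23). For Mir450-1 the ratio was 0.12 with an interval from -0.83 to 1.09, so at this depth changes within that interval were not excluded. Adjusted p-values of these 4 genes ran from 0.183 for Mir450b to 0.951 for Mir450-1 by the exact binomial test. When the total left out Mir99a, Mir542 was called higher as well (0.16, exact binomial test, adjusted p = 0.0301). Shares of the cluster's counts differed between the libraries beyond their counting intervals for Mir322 and Mir351, and overlapped for the other 4. As parts of the same whole, the shares of Mir322 and Mir351 do not vary independently.

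**Figure D4:**
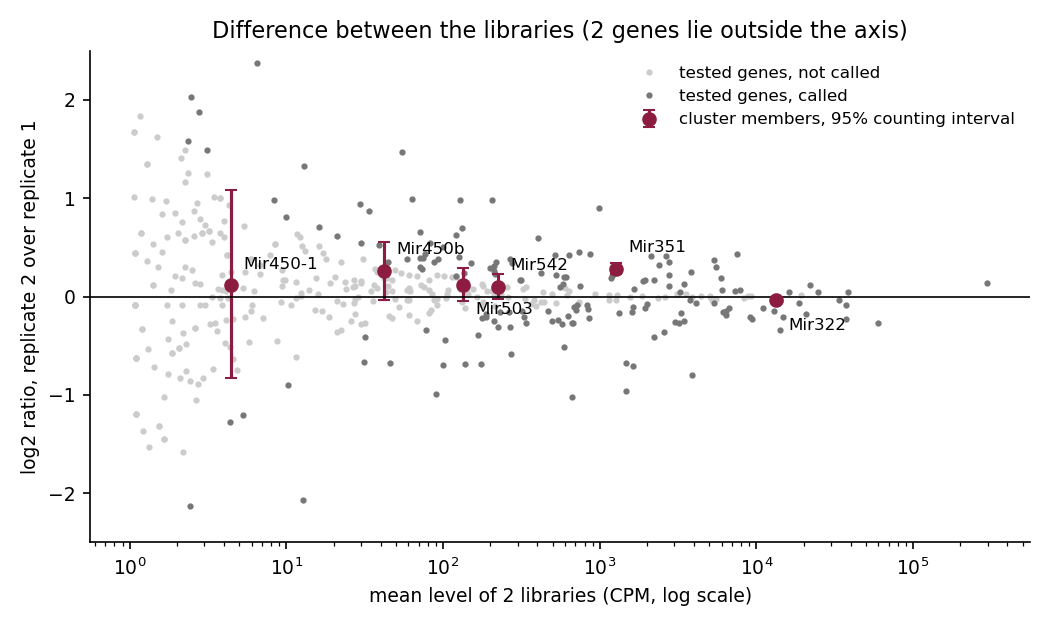
Log2 ratio of replicate 2 over replicate 1 against mean level in CPM (log axis) for the 457 genes tested, called genes in dark grey, with the 6 members in red and their 95% counting intervals. Mir351 lies at 0.28 and Mir322 at -0.039; the interval of Mir450-1 is the widest of the 6. Of the genes tested, 2 lie outside the axis.

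Other lists were read beside these values. Of 7 matched miR-15/16 relatives outside the cluster (Mir497 had no row), 5 were detected, Mir15a was called higher in replicate 2 (log2 ratio 0.43) and none lower. Shares called over all genes tested were 19.3% higher and 17.1% lower. Of the X-linked genes listed, Mir363 (0.31), Mir501 (0.20) and Mir362 (0.30) were called higher and Mir221 (-0.22) lower, and the other 9 were not called. Of the genes with the miR-125 seed, Mir125a (0.37) and Mir125b-1 (0.16) were called higher and Mir125b-2 (-0.11) lower.

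The cluster has been studied in muscle and blood vessels, among other tissues. Lists of muscle, mesenchyme and mural cell, and endothelial markers were read in the same libraries, and no list of epithelial markers was. The skeletal and heart muscle list summed to 64.3 CPM in replicate 1 and 58.1 CPM in replicate 2 over 8 matched genes, of which 4 were detected and Mir1a-1, Mir133a-1 and Mir133a-2 had no counts. Mir208b (38.0 ± 4.61 CPM), Mir206 (12.7 ± 11.1 CPM) and Mir208a (6.81 ± 1.08 CPM) led it. Since reads that fit more than 1 locus went to no gene, 0 counts in genes with copies, such as Mir133a-1 and Mir133a-2, do not show absence. The muscle sum can therefore be too low. Mir206 was called lower in replicate 2 and no gene of the list higher. The mesenchyme and mural cell list summed to 6041 CPM in replicate 1 and 6814 CPM in replicate 2. Most of that was Mir143 (3459 ± 219 CPM) and Mir140 (2772 ± 300 CPM). Mir214 (92.9 ± 17.4 CPM), Mir145a (54.0 CPM), Mir199b (47.3 CPM), Mir199a-2 (2.82 CPM) and Mir199a-1 (0.210 CPM) were far lower. Any read that fits more than 1 Mir199 gene was counted for none of them. Of the 7 genes of the mesenchyme and mural cell list, 6 were tested. Of these, 3 were called higher in replicate 2 and none lower, where 19.3% of all genes tested were called higher and 17.1% lower. Endothelial Mir126a stood at 15856 CPM in replicate 1 and 16377 CPM in replicate 2, higher than Mir322 in both libraries. The part of these cell types in the levels of the cluster was not tested, and fewer cells of a type and less RNA per cell cannot be told apart in bulk tissue.

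All reads of the 6 genes were in 1 of the 2 strand columns in both libraries, the column with the larger total, which was taken as the strand of the gene. The other column held 0 for each of them. For Mir322 this allows an opposite-strand share of up to 0.00497% in replicate 1 and 0.00479% in replicate 2, the share of 3 reads. For Mir450-1 the limit was 15.8% in replicate 1 and 13.6% in replicate 2, because of its low count.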

How the data were processed

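The authors deposited, for each library, raw read counts per miRNA gene, as whole numbers. Per the deposited README text, they rest on alignments to mm10 and on GENCODE M4. No source used here names the aligner or the counter. The files have 3 count columns, for either strand and for each strand. No source names the strands. The second column, which has the larger total of the strand columns, was taken as the gene's own strand. The 4 rows that name no gene were left out of totals. Symbols and coordinates came from GENCODE M21 on the same build, which matched 1894 of 1973 rows. Mature sequences came from RefSeq (GRCm38.p6), which held 916 of the named genes, among them all 6 members. The table also held hairpins of 5 members. That of Mir351 is not shown.

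The members and lists were chosen with earlier results of these data known. Genes named are the members, their seed relatives, same-strand neighbours within 10 kb, rank neighbours and the 3 highest of each list. Mir98, Mirlet7f-2, Mir99a, Mir362, Mir1a-1, Mir133a-1, Mir133a-2, Mir145a, the Mir199 genes and the Mir124a genes were named after their values were seen. CPM, exact binomial tests across all genes and Clopper-Pearson intervals were computed with Python 3.11.15 and scipy 1.17.1. Log2 ratios had 0.5 counts added to each library, and intervals none. No contrast exists within 1 group, so no quasi-likelihood test was run. edgeR 4.0.16 gave TMM factors and the spread between replicates (common coefficient of variation 16.1%, from an intercept-only fit), and DESeq2 1.42.0 gave size factors. The labels call the libraries biological replicates, and p-values measure only the difference between these 2. Alternatives were other scalings, the column for either strand, other minimum counts and added counts, and leaving out each replicate.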

Additional observations from a re-analysis of the deposited data

How the results depend on the processing

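The share of gene counts held by the 6 genes was 1.50%, and it became 2.14% without Mir99a in the total, 0.667% over gene, multi-mapping and no-feature rows and 1.48% with reads on either strand. Each single library gave 1.50% and 1.51%. Mir322 made up 87.8% and 89.8% of the cluster, 44.5% and 48.7% of its seed family, and Mir351 11.5% and 12.0% of its own, in single libraries. Of the 6 genes, 2 were called under TMM and DESeq2 scaling, either strand, all minimum counts and all added counts tried, and 3 without Mir99a. The share called over all genes tested was 36.3% with TMM, 36.5% with DESeq2, 35.7% on either strand and 39.6% without Mir99a. Under that last total, Mir322 turned from -0.039 to 0.020 (exact binomial test, adjusted p = 0.0373) and the median ratio of all genes tested was 0.11. The share of called genes that were higher in replicate 2 was 53.0%, against 43.4% with TMM and 69.1% without Mir99a. The direction of the other 5 genes held under every scaling run. With no minimum count, 21.5% of 724 genes were called, and with at least 100 counts 53.0% of 298, where Mir450-1 could not be tested. Leaving out a library leaves no library difference to test. No paired analysis was possible because there is only 1 group. Depth limits Mir450-1 and Mir450-2 most. Identical 5p arms limit them as well, and this was not tested.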
